A study of Homo sapiens with 6 samples.

Results

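The genes described here encode ligands and surface molecules through which a cell is seen by T cells, natural killer cells and macrophages. They are the rows of the deposited count files with the symbols Cd274, Cd276, Vsir, Pvr, Nectin2, Cd47, Cd24a, Lgals9, Nt5e and Icam1, 10 of the 38986 gene symbols in each file. The series has 6 RNA-seq libraries, 3 in each group. By their labels, both groups are mCherry-positive 293T cells, a human embryonic kidney line, grown in serum-containing DMEM. The labels give one group the genotype "STAT6 overexpression" with wild-type STAT6, a transcription factor activated by interleukin signals, and the other the genotype "WT" with Mock. The vector, its promoter, the number of clones and the time of expression are not stated in the labels.

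The files hold mouse gene symbols, not human ones. None of the 10 symbols is a human symbol in the same case (0 of 10), and 17 of all symbols are. Stat6 went against its label: it was at 35.1, 33.6 and 32.1 CPM where the label is STAT6 and at 95.2, 95.5 and 92.8 CPM where it is Mock (log2 fold change -1.49, SE 0.04, adjusted p = 7.47e-26). All 9 pigment cell markers checked had counts in every library and together held 14669 to 17159 CPM. They were divided between the groups. Tyr stood at 29.1 CPM under the STAT6 label and 303 under the Mock label, and Dct at 6179 and 4264. Of 7 kidney markers, 6 were under 1 CPM in every library, with Pax8 at 0. The 2 kidney markers that were tested went opposite ways. Lhx1 had 198 counts under the STAT6 label and 0 under the Mock label, and Lrp2 had 8 and 45. Library totals lay between 19894773 and 29802693 counts. The direction of each comparison rests on these labels alone: "higher" and "rose" mean higher in the libraries labelled STAT6. CPM is a count scaled to a common library size after TMM scaling, a correction for library composition. Fold changes and adjusted p-values are from edgeR's quasi-likelihood test over 12938 genes, with a threshold of 0.05. Nothing in the labels ties the libraries to separate cultures. The p-values are therefore set against the spread among 3 libraries a group, and this spread may be technical only.

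T cells carry receptors that dampen their activity when they meet a ligand on another cell. PD-L1, the product of Cd274, binds PD-1, and the nectin family members CD155 (Pvr) and CD112 (Nectin2) bind the inhibitory receptor TIGIT and the activating receptor CD226. CD47 binds SIRPA on macrophages and restrains phagocytosis, CD73 (Nt5e) makes adenosine outside the cell, and ICAM-1 anchors leukocytes through the integrin LFA-1. In melanoma and other tumours these molecules are studied as means of immune escape, and several of them respond to interferon gamma or NF-kB.

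Most of the detected ligands were more abundant in the libraries labelled STAT6. Lgals9 rose 3.74-fold, Pvr 2.19-fold, Nectin2 2.08-fold, Cd274 2.03-fold and Cd47 1.23-fold. Cd276 went the other way and was 2.19-fold lower. Icam1 rose from a trace to a level still under 1 CPM, while Vsir, Cd24a and Nt5e had at most 6 counts in either group. In bulk RNA a change in the share of cells that carry a transcript and a change in its amount per cell cannot be told apart. A filter on low counts passed 7 of the 10 genes. Of these, 6 were called higher, where 35.8% of all tested genes were, and 1 was called lower, where 36.8% were. Since 72.6% of all tested genes were called in either direction, the number of calls says little by itself. Changes of at least 2-fold are less common: 5 of the 7 were higher by that much, where 10.6% of all tested genes were. Another 1 was lower by that much, where 4.96% were. Cd274 and Nectin2 lie at this cut, and with library totals alone both were under it (log2 fold change 0.95 and 0.98). The 10 genes were chosen with earlier results of these data known, so these shares are no test of them. Icam1 passed the filter through the libraries labelled STAT6 alone (3 of 3 against 0 of 3), so it had to differ and adds nothing to these counts. The groups did not overlap in any of the 7, which was also true of 74.6% of all tested genes. For Icam1 the filter fixed this too.

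**Figure D1:**
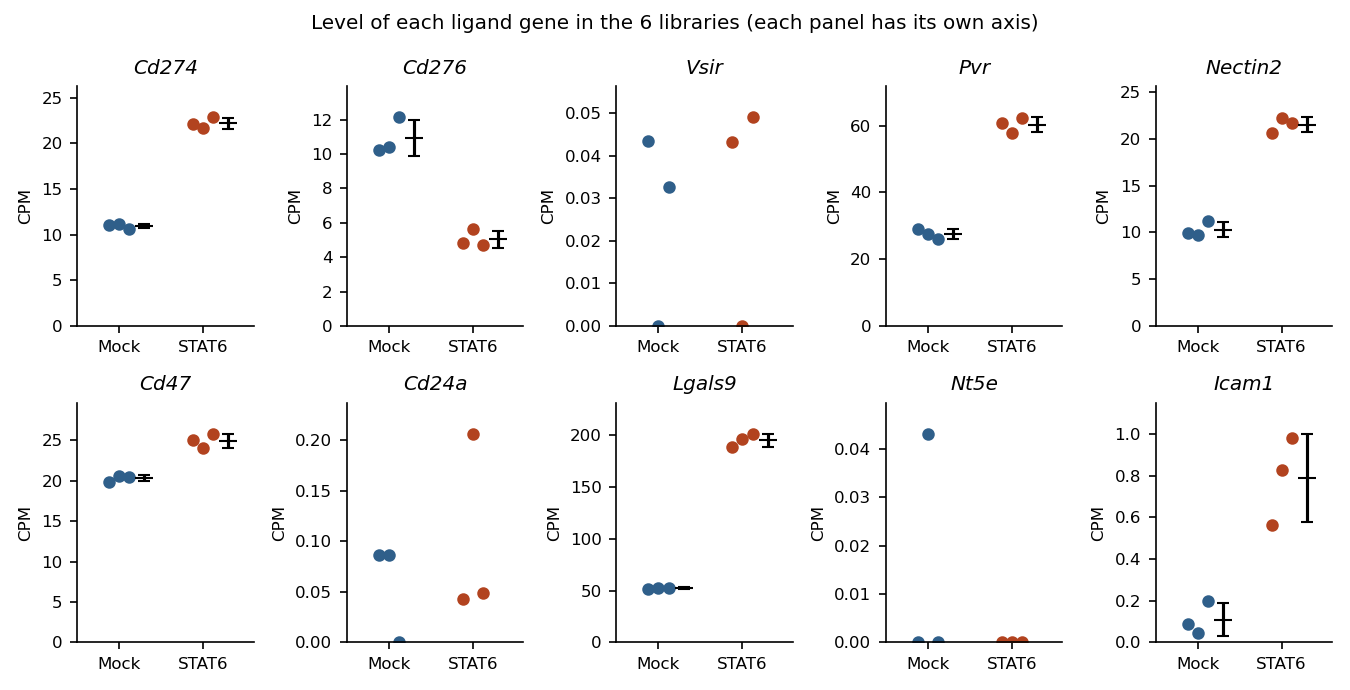
Level of each gene in CPM (vertical axis, linear, a separate scale per panel) in the 3 libraries labelled Mock (blue points) and the 3 labelled STAT6 (red points), with mean and SD as black bars for the 7 tested genes. Lgals9, Pvr, Nectin2, Cd274, Cd47 and Icam1 lie higher in every STAT6-labelled library, Cd276 lies lower in every one, and Vsir, Cd24a and Nt5e reach at most 0.206 CPM in any library.

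The B7 family, a group of immunoglobulin-like ligands of T cells, split in direction. Cd274, the gene of PD-L1, stood at 22.1, 21.6 and 22.8 CPM in the STAT6-labelled libraries and at 11.1, 11.1 and 10.6 CPM in the Mock-labelled ones. Every library of the first group lay above every library of the second (22.2 ± 0.605 against 10.9 ± 0.269 CPM, SD, n = 3 each; log2 fold change 1.02, SE 0.07, adjusted p = 3.73e-15). Its counts were 420 to 511 against 255 to 325 per library. Cd276 encodes B7-H3, a B7 relative found on many tumours whose receptor is not settled. It stood at 4.79, 5.62 and 4.70 CPM in the STAT6-labelled libraries and at 10.2, 10.4 and 12.1 CPM in the Mock-labelled ones. Here every STAT6-labelled library lay below (5.04 ± 0.503 against 10.9 ± 1.04 CPM; log2 fold change -1.13, SE 0.11, adjusted p = 2.25e-11). Vsir, the gene of the checkpoint ligand VISTA, had 1, 0 and 1 counts in the STAT6-labelled and 1, 0 and 1 in the Mock-labelled libraries. It was at the limit of detection in both groups, 2 counts against 2, and no fold is given.

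The same values can be written as a ratio, which adds no support to the calls above. For each count of Cd274 there were 0.217, 0.260 and 0.206 counts of Cd276 under the STAT6 label, and 0.925, 0.938 and 1.14 under the Mock label. The ratio of counts therefore went from 1.00 ± 0.121 to 0.228 ± 0.0282 (SD, n = 3), with no overlap (p = 0.1 by a 2-sided exact permutation test, which cannot give less with 20 assignments; 0.15 adjusted over 3 ratios). Such a ratio is not corrected for gene length, so it compares the groups and not the amounts of the 2 transcripts.

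Both nectin ligands rose, and their fold changes were close. Pvr, whose product CD155 binds TIGIT, CD226 and CD96, stood at 60.8, 57.7 and 62.1 CPM in the STAT6-labelled libraries and at 29.1, 27.6 and 26.2 CPM in the Mock-labelled ones. The groups were far apart relative to their spread (60.2 ± 2.27 against 27.6 ± 1.48 CPM; log2 fold change 1.13, SE 0.05, adjusted p = 1.53e-20). Nectin2, whose product CD112 shares TIGIT and CD226 and also serves in cell junctions, stood at 20.6, 22.2 and 21.7 against 9.94, 9.74 and 11.2 CPM. It too was higher in each of the 3 libraries (21.5 ± 0.799 against 10.3 ± 0.783 CPM; log2 fold change 1.05, SE 0.08, adjusted p = 8e-15). The ratio of Pvr to Nectin2 counts was 2.80 ± 0.181 under the STAT6 label and 2.70 ± 0.317 under the Mock label. This difference was smaller than the spread within either group (exact permutation test, 2-sided, p = 0.6; 0.6 adjusted over 3 ratios).

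**Figure D2:**
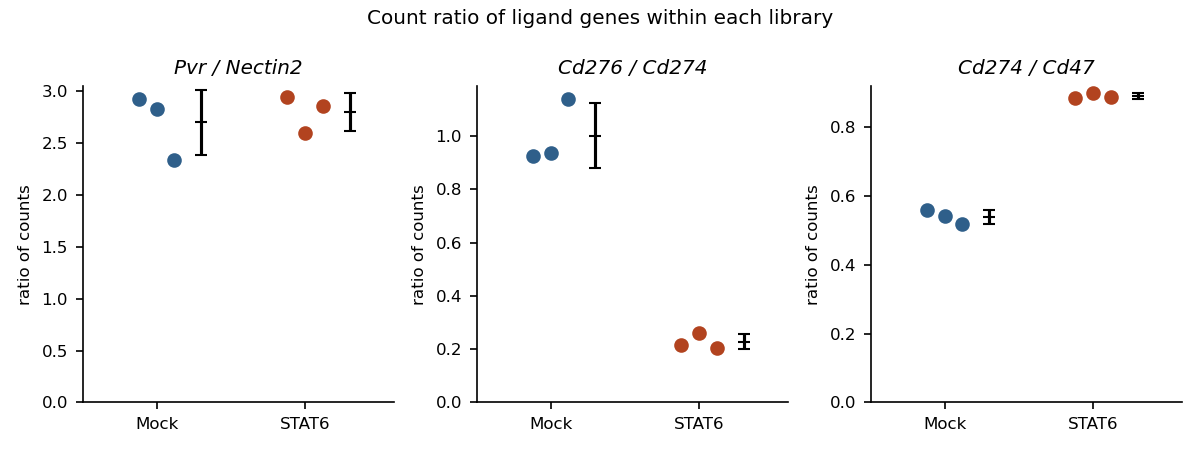
Ratio of the counts of 2 genes within each library (vertical axis, linear, from 0) for the 3 libraries labelled Mock (blue) and the 3 labelled STAT6 (red), with mean and SD as black bars. Pvr to Nectin2 overlaps between groups, Cd276 to Cd274 is lower in the STAT6-labelled libraries (0.228 against 1.00), and Cd274 to Cd47 is higher (0.890 against 0.539).

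Cd47, whose product signals macrophages not to engulf the cell, changed least among the 7 tested genes. It stood at 25.0, 24.1 and 25.8 CPM in the STAT6-labelled libraries and at 19.8, 20.6 and 20.5 CPM in the Mock-labelled ones. The groups did not overlap (24.9 ± 0.857 against 20.3 ± 0.419 CPM), and the log2 fold change was 0.30 (SE 0.06, adjusted p = 5.83e-05). A test for a change beyond 1.5-fold, glmTreat, called the other 6 tested genes but not Cd47 (adjusted p = 1; over all genes 21.5% were called). Among these 6, Icam1 adds nothing, as it passed the filter through the STAT6-labelled libraries alone. Cd274 rose relative to Cd47, with 0.890 ± 0.00834 counts per Cd47 count against 0.539 ± 0.0198 and no overlap. The 2-sided exact permutation test gave p = 0.1 (0.15 adjusted over 3 ratios), the lowest it can give. This ratio restates the fold changes of Cd274 and Cd47 and adds no support to them. Cd24a encodes CD24, a small glycoprotein whose glycans bind inhibitory Siglec receptors on macrophages. It had 1, 4 and 1 counts against 2, 2 and 0, totals of 6 and 4, and a depth-scaled ratio of 1.83 with a 95% counting interval of 0.434 to 8.82. No difference was detectable at this depth.

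Lgals9, the gene of galectin-9, a sugar-binding protein that engages TIM-3 on T cells and innate cells, had 1179 to 4361 counts per library. It stood at 188, 196 and 201 CPM in the STAT6-labelled libraries and at 51.2, 52.6 and 52.7 CPM in the Mock-labelled ones. Replicates lay close together and the groups were well separated (195 ± 6.18 against 52.1 ± 0.850 CPM; log2 fold change 1.90, SE 0.04, adjusted p = 3.49e-31). Of all tested genes, 95.2% had a lower log2 fold change than Lgals9. The corresponding shares were 90.7% for Pvr, 89.9% for Nectin2, 89.5% for Cd274 and 70.4% for Cd47, and 4.10% for Cd276 at the other end.

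Nt5e, the gene of the ectoenzyme CD73, was not seen beyond a single read. It had 0 counts in each library labelled STAT6 and 0, 1 and 0 in those labelled Mock. A count of 0 over the libraries labelled STAT6 allows a level of up to 0.0476 CPM (3 counts over the group), which covers counting error only, so no fold is given.

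Icam1, the leukocyte adhesion ligand, had 13, 16 and 20 counts under the STAT6 label and 2, 1 and 6 under the Mock label. That is 0.561, 0.824 and 0.980 against 0.0868, 0.0431 and 0.196 CPM, a low level in all 6 libraries with no overlap between groups. Since Icam1 passed the filter through the STAT6-labelled libraries alone, that separation was fixed in advance and no p-value is given. The fitted log2 fold change was 2.69 (SE 0.49). The depth-scaled ratio of the totals, 49 and 9, was 6.64 with a 95% counting interval of 3.23 to 15.4. The size of the change leans on the library labelled Mock replicate 3. Without it the log2 fold change was 3.48.

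**Figure D3:**
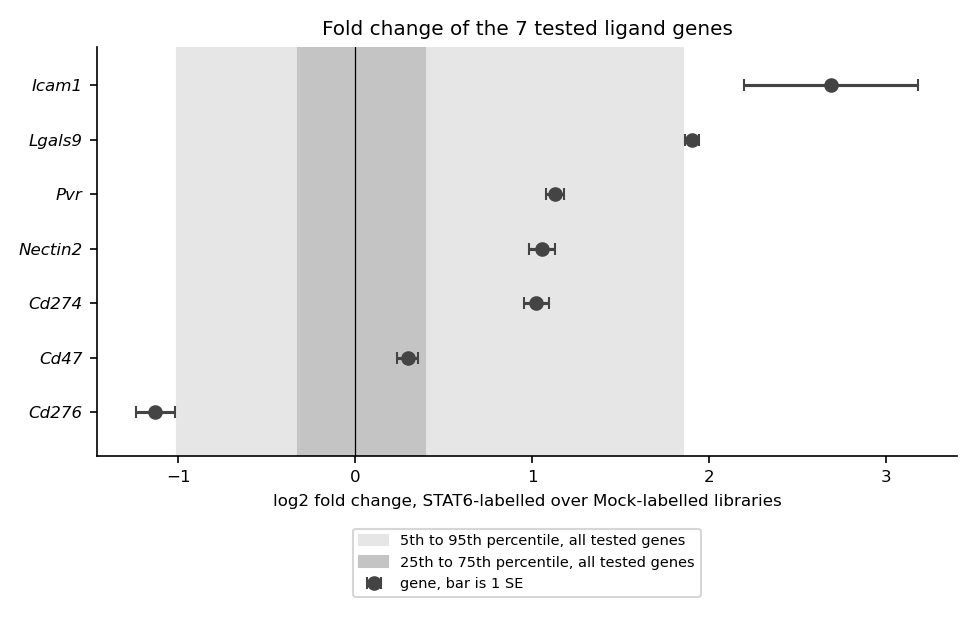
Log2 fold change of the 7 tested genes (points, horizontal axis; bars are 1 SE), STAT6-labelled over Mock-labelled libraries. The grey bands hold the 25th to 75th and the 5th to 95th percentiles of all 12938 tested genes (-0.32 to 0.40 and -1.01 to 1.85): Icam1 and Lgals9 lie above the wider band, Cd276 lies below it, and Cd47 lies within the narrower one.

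Leukocytes carry several of these ligands and nearly all of their receptors. Of 12 leukocyte markers, 10 were under 1 CPM in every library, Cd3e and Adgre1 had 0 counts, and Ptprc, the gene of CD45, had 3 counts against 1. The 12 together held 4.21 to 4.64 CPM under the STAT6 label and 1.34 to 1.65 under the Mock label, mostly from Lyz2 and Cd68. The 7 endothelial markers summed to 0.637 to 1.03 against 0.0434 to 0.262 CPM, each of them under 1 CPM. The 7 fibroblast markers summed to 78.6 to 84.9 against 18.8 to 20.7 CPM, and their members were divided: Col1a1 stood at 78.7 against 4.85 CPM and Col1a2 at 2.14 against 13.4 CPM. The part of these markers in the results was not tested.

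Genes around the ligands were taken from 11 lists of 195 different genes, of which 188 are in the files and 123 were tested (Lgals3 and Siglecg stand in 2 lists). Among these 73 were called higher (59.3%, against 35.8% of all genes), 33 lower (26.8%, against 36.8%) and 17 did not pass. Their median log2 fold change was 0.35, and that of all tested genes was -0.00. The lists were chosen with earlier results of these data known. An excess over the share of all genes, here or in a list below, is therefore no test of the lists. Of the 123, 9 were under the filter level in every library of 1 group (Cd80, Ceacam1, Lgals3, Nectin4, Cadm2, Siglecg, Lgals4, Bcl3 and Itgb2). Like Icam1 they passed only through the group where they are high, so for them counts are given below without a p-value. Of the other 114, 66 were higher and 31 lower, with a median of 0.30. Over the whole table, 12378 genes were likewise past the filter level in both groups, 4293 of them higher and 4557 lower. The remaining 65 genes were below the filter, with at most 68 counts over the 6 libraries.

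**Figure D4:**
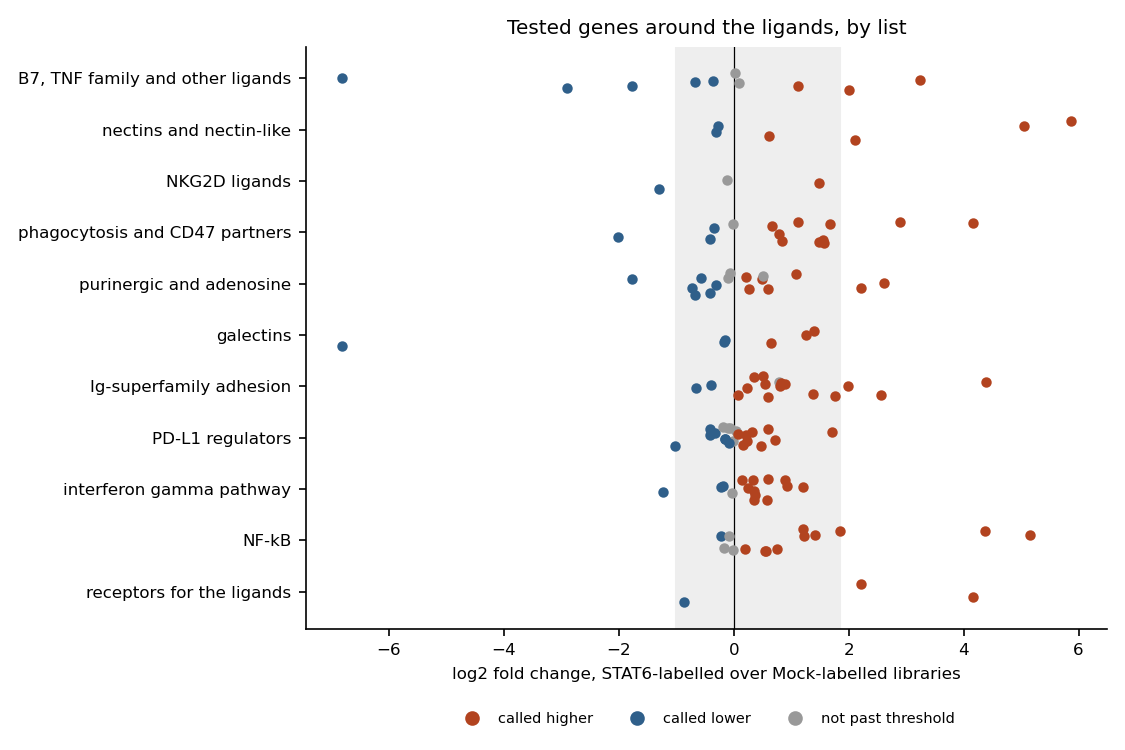
Log2 fold change (horizontal axis, STAT6-labelled over Mock-labelled libraries) of each tested gene in the 11 lists (rows; points are spread vertically only to separate them), coloured by call, with the 5th to 95th percentile of all tested genes in grey. Points lie on both sides of 0 in every list, mostly to the right for the immunoglobulin superfamily adhesion genes (14 higher and 2 lower of 17) and the NF-kB genes (10 higher and 1 lower of 14). Of all tested genes 35.8% were higher and 36.8% lower.

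Further checkpoint ligands were few and divided. Of 28 genes in the list of B7, TNF family and other checkpoint ligands, 10 were tested. Of the 7 past the filter level in both groups, 2 were higher and 3 lower, the median log2 fold change being 0.02. Of all 10, 30% were higher and 50% lower, against 35.8% and 36.8% of all tested genes. Tnfrsf14, the gene of HVEM, a ligand of the inhibitory receptor BTLA, went from 0.788 ± 0.0749 to 3.16 ± 0.172 CPM (adjusted p = 4.57e-10; log2 fold change 2.01). Cd80, a costimulatory ligand that also binds CTLA-4 and PD-L1, had 103 counts against 13. Ceacam1, a homophilic adhesion molecule and proposed TIM-3 ligand, had 1, 5 and 1 counts against 21, 26 and 19. Hmgb1, a chromatin protein that acts as a danger signal outside the cell, had a log2 fold change of -0.68. Pdcd1lg2, the gene of PD-L2 and the closest relative of Cd274, is named after its values were seen: it had 5 counts against 7.

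Lgals3 moved against Lgals9 among the galectins. It had 1, 0 and 2 counts under the STAT6 label and 126, 146 and 186 under the Mock label, so that the libraries labelled Mock had 125 times as much (95% counting interval 42.6 to 609). The fitted log2 fold change, -6.81, was -7.70 without STAT6 replicate 3. Lgals1, an abundant galectin that promotes T cell death, rose from 565 ± 16.1 to 886 ± 4.47 CPM (log2 fold change 0.65, adjusted p = 5.5e-21). Lgals3bp, a secreted glycoprotein that binds galectins, had a log2 fold change of 1.25, and Lgals8 one of -0.18. Besides Lgals3 and Lgals4, which passed the filter through 1 group, 2 of the other 4 tested genes of this list were higher and 2 were lower, with a median of 0.25. Of all 6, 50% were higher and 50% lower, against 35.8% and 36.8% of all tested genes.

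Among the relatives of Pvr and Nectin2, the nectin-like genes Cadm4 and Cadm1 rose and Nectin3 fell. Cadm4 went from 23.4 ± 1.75 to 102 ± 2.05 CPM (adjusted p = 1.98e-29; log2 fold change 2.12 with SE 0.05), and Cadm1, whose product is a ligand of the natural killer cell receptor CRTAM, rose by 0.62. Cadm2 had 304 counts against 6, with a fitted log2 fold change of 5.86, which was 6.62 without Mock replicate 3. Nectin4 had 65 counts against 2, a ratio of 39.7 (95% counting interval 10.5 to 334), and its fitted log2 fold change of 5.04 was 4.40 without Mock replicate 3. Nectin3, the binding partner of Nectin2 and Pvr in cell junctions, is named after its values were seen and had a log2 fold change of -0.31 (adjusted p = 1.42e-07). Besides Cadm2 and Nectin4, 2 of the other 4 tested genes were higher and 2 lower, with a median of 0.17. Of all 6, 66.7% were higher and 33.3% lower, against 35.8% and 36.8% of all tested genes.

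Ligands of the activating receptor NKG2D gave 1 higher and 1 lower of 3 tested, the median log2 fold change being -0.12. That is 33.3% in each direction, against 35.8% higher and 36.8% lower of all tested genes. Raet1d rose from 13.5 ± 0.801 to 37.6 ± 3.46 CPM (log2 fold change 1.48, adjusted p = 9.8e-20) and Ulbp1 fell from 4.32 ± 0.589 to 1.74 ± 0.279 CPM (-1.31, adjusted p = 6.22e-08). Raet1e, a near copy of Raet1d, stood at -0.12 (adjusted p = 0.103), and the split of reads between these copies is uncertain.

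Of 14 tested genes of phagocytosis and of the partners of CD47, 71.4% were called higher and 21.4% lower. Over all tested genes these shares were 35.8% and 36.8%. In both groups 13 of the 14 were past the filter level. Among these 13, 9 were called higher and 3 lower, and their log2 fold changes had a median of 0.84. Thbs1, the gene of thrombospondin-1, a secreted ligand of CD47, went from 16.7 ± 1.43 to 4.10 ± 0.506 CPM (adjusted p = 7.86e-19; log2 fold change -2.02 with SE 0.10). Itgb3, the integrin beta chain that CD47 associates with, went from 16.8 ± 0.180 to 126 ± 2.67 CPM (2.90, adjusted p = 3.86e-34). Lrp1, an endocytic receptor for calreticulin, rose by 1.67 and Anxa1, a phospholipid-binding protein shown by dying cells, by 1.56. B2m, the class I light chain, which also restrains macrophages, rose by 1.48. Siglecg, a receptor for CD24, had 109 counts against 7, in libraries where Cd24a itself was close to 0. Qpctl, the enzyme that modifies CD47 for binding SIRPA, is named after its values were seen: its log2 fold change was 0.66 (adjusted p = 2.89e-06). Sirpa and Calr, the gene of calreticulin, named likewise, went the other way. Their log2 fold changes were -0.41 (adjusted p = 1.23e-13) and -0.35 (adjusted p = 6.31e-14).

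The calls among the genes around CD73 were near the background: of 16 tested, 7 were higher (43.8%, against 35.8% of all genes) and 6 lower (37.5%, against 36.8%), the median log2 fold change being 0.07. Enpp2, the gene of autotaxin, a secreted lysophospholipase D, fell from 225 ± 3.97 to 66.2 ± 1.84 CPM (-1.76, SE 0.04, adjusted p = 8.17e-31). Entpd2, an ectoenzyme that cleaves ATP, rose from 1.46 ± 0.182 to 8.93 ± 1.03 CPM (2.62, adjusted p = 5.18e-17). The ATP receptor genes P2rx7 (1.08) and P2ry2 (2.22) rose, and Adk, the kinase that removes adenosine inside the cell, fell (-0.58). The 4 adenosine receptor genes, Adora1, Adora2a, Adora2b and Adora3, singled out after their values were seen, had at most 3 counts in either group.

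Most of the other adhesion molecules tested were higher. Of 17 tested genes, 14 were higher (82.4%, against 35.8% of all genes) and 2 lower (11.8%, against 36.8%), the median log2 fold change being 0.79. Jam2, a junctional molecule that binds leukocyte integrins, went from 8.31 ± 0.287 to 48.9 ± 2.17 CPM (2.56, SE 0.07, adjusted p = 5.73e-28). L1cam, a neural adhesion molecule also found in melanoma, rose by 1.38, the melanoma adhesion gene Mcam by 4.39, and Ezr, the gene of ezrin, which ties ICAM-1 and CD44 to actin, by 0.89. Icam2, another LFA-1 ligand, is named after its values were seen: it had 76 counts against 27 (1.76, adjusted p = 2.9e-05). Vcam1, named likewise, had 4 counts against 0.

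The calls among the regulators of PD-L1 were near the background too. Of 21 tested, 9 were higher (42.9%, against 35.8% of all genes) and 7 lower (33.3%, against 36.8%). Their median log2 fold change was -0.02. Myc, a transcription factor that acts on Cd274, rose by 0.60 and Cmtm3, a relative of the PD-L1 stabiliser Cmtm6, by 0.72. B3gnt3, a glycosyltransferase that acts on PD-L1, rose from 1.77 ± 0.149 to 5.84 ± 0.548 CPM (1.72, adjusted p = 9.52e-12). Cdk4, the cyclin D kinase linked to PD-L1 turnover, had a log2 fold change of -0.42. Cmtm6 itself, named after its values were seen, was higher by 0.47 (adjusted p = 3.09e-10).

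The interferon gamma pathway had 11 higher and 3 lower of 15 tested genes, the median log2 fold change being 0.35. These are 73.3% higher and 20% lower, against 35.8% and 36.8% of all tested genes. Stat3, a transcription factor of cytokine receptors, rose by 0.93 (SE 0.04, adjusted p = 2.97e-21), Irf9, a factor of interferon signalling, by 0.89, and Ptpn11, the gene of the phosphatase SHP2, by 0.59. Irf1, the factor through which interferon gamma acts on Cd274, is named after its values were seen. It stood at 12.9 ± 1.66 against 13.3 ± 1.51 CPM and did not pass the test (-0.04, SE 0.09, adjusted p = 0.725).

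Of 14 tested NF-kB genes, 13 were past the filter level in both groups, with 9 higher and 1 lower and a median log2 fold change of 0.57. Of all 14, 71.4% were higher and 7.14% lower, against 35.8% and 36.8% of all tested genes. Tnfaip3, a feedback inhibitor of NF-kB, went from 0.510 ± 0.117 to 18.7 ± 0.718 CPM (5.15, SE 0.15, adjusted p = 1.23e-26). Nfkb2, a subunit of the noncanonical arm, rose by 1.21, Nfkbia, the gene of the inhibitor IkB-alpha, by 1.21, and the kinase gene Ikbkb by 0.75. Bcl3, a nuclear IkB protein, had 209 counts against 12, with a fitted log2 fold change of 4.37, which was 5.18 without Mock replicate 3.

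The genes in the list of receptors for the ligands, genes of immune cells for the most part, were scarce. Of 18 genes 3 were tested, and Siglecg and Itgb2, the beta chain of LFA-1 (62 counts against 16), were so through the STAT6-labelled libraries alone. Havcr2, the gene of TIM-3, a receptor of galectin-9, fell from 4.24 ± 0.341 to 2.31 ± 0.497 CPM (adjusted p = 2.8e-05; log2 fold change -0.86). Pdcd1, Tigit and Cd226, named after their values were seen, had 1, 1 and 0 counts against 2, 0 and 0.

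The genes whose log2 CPM values over the 6 libraries, each centred on its own mean, lay nearest to those of Cd276 were Dnmt3b, a DNA methyltransferase gene (Euclidean distance 0.17, log2 fold change -1.06), Crocc, a ciliary rootlet gene (0.17, -1.06), and Depdc1b (0.18, -1.13). Nearest to Icam1 were Dok2 (0.44, log2 fold change 3.41), Rsph1 (0.54, 2.01) and Gipc3 (0.55, 2.27). These distances are mostly set by the difference between the groups, which many genes share, and are larger for Icam1, whose counts are few.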

How the data were processed

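The deposited files give 1 whole-number count per gene symbol and library. In the submitters' processing notes the human build GRCh37 is named with the tools FastQC, STAR, Salmon and edgeR, while the symbols are mouse symbols. How reads were assigned, and whether by strand, is not given in the sources used here. The kit was a stranded mRNA kit, per the labels' protocols. Without a mouse reference no sequences or coordinates are printed, and levels are not compared between genes.

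The deposited counts entered edgeR 4.0.16, run in R 4.3.3 (filterByExpr, TMM, glmQLFit with robust = TRUE, glmQLFTest, 2-sided), with a design of group alone and Benjamini-Hochberg adjustment over the 12938 genes tested, which held 99.9% of counts. SDs are over 3 libraries. Intervals for count ratios are exact conditional 95% intervals scaled to depth, and intervals and limits cover counting error only. No library was a copy of another: within a group, the median chi-square between libraries was 1.45 to 2.50 times that of counting noise. Alternatives were other scalings and filters, DESeq2 1.42.0, limma-voom (limma 3.58.1), the replicate number as a block, totals without Gm26917 or without mitochondrial transcripts, a fit without each single library, a stricter threshold and a test beyond 1.5-fold.

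The ligand genes and lists were chosen with earlier results of these data known. Named are all 10 ligand genes; from each list up to 4 genes with the smallest adjusted p and every called gene changed at least 4-fold; and the 3 genes nearest to the ligand genes with the largest rise and fall, passing over unnamed transcripts. This rule also takes genes that are not reported here.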

Additional observations from a re-analysis of the deposited data

How the results depend on the processing

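All 7 tested ligand genes kept their direction under every alternative that gave a value, and each kept its call except Cd47 (log2 fold change 0.30) in the test for a change beyond 1.5-fold. That test called 1807 genes higher and 972 lower instead of 4638 and 4761, and 41 and 9 of the listed genes instead of 73 and 33. By list, it called higher 3 purinergic genes instead of 7, 8 adhesion genes instead of 14, 2 PD-L1 regulators instead of 9 and 3 interferon gamma genes instead of 11. It called lower 0 nectin-like genes instead of 2, 0 adhesion genes instead of 2, 0 NF-kB genes and 0 receptors instead of 1 each, and 1 gene each of phagocytosis (3), purinergic genes (6), galectins (3), PD-L1 regulators (7) and interferon gamma (3), the counts of the main test in brackets. Under it Cadm1, Adk, Lgals8, Myc, Cdk4, Ptpn11 and Havcr2 were no longer called. Leaving out each library in turn gave log2 fold changes of 1.00 to 1.04 for Cd274, -1.21 to -1.04 for Cd276, 1.08 to 1.16 for Pvr, 1.01 to 1.12 for Nectin2, 0.27 to 0.32 for Cd47, 1.88 to 1.92 for Lgals9 and 2.35 to 3.48 for Icam1. With 1 CPM in 3 libraries as the filter, Icam1 was not tested. Where the main filter was used, the call of Icam1 adds nothing. With no filter, Vsir, Cd24a and Nt5e did not pass (edgeR, adjusted p = 0.935, 0.606 and 0.507).

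Library totals alone gave 4050 genes higher and 5475 lower, shifted the median gene by -0.07 and brought Raet1e past the threshold (-0.20, adjusted p = 0.0107). Cd274 and Nectin2 then changed by less than 2-fold (log2 fold change 0.95 and 0.98). Without STAT6 replicate 3 or Mock replicate 3, Cd274 was just under 2-fold as well (0.998 and 0.996). Among the lists, the lower NF-kB genes numbered 3 with library totals alone and 2 with upper-quartile factors or without STAT6 replicate 1, Mock replicate 1 or Mock replicate 2, instead of 1. The higher receptor genes numbered 5 with no filter and 1 with the 1 CPM filter, instead of 2, and the lower checkpoint ligands 3 with the 1 CPM filter instead of 5. With the replicate number as a block, 6 ligand genes were higher and 1 lower as before, and 4643 and 4779 genes were called overall. Same-numbered libraries correlated by 0.05, 0.10 and 0.03 in their deviations from the group means, so the numbers were not taken to pair the libraries. Each library but Mock replicate 3 correlated best with its own number. The results for Vsir, Cd24a, Nt5e and Icam1 are limited by depth.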
